A study of Parasteatoda tepidariorum with 20 samples.

Results

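The Forkhead, T-box and GATA factors of the common house spider *Parasteatoda tepidariorum* were taken from the gene models of the abundance table by their descriptions: the words forkhead box, fork head, silk gland factor, T-box or GATA, or the names brachyury or nuclear factor 3. The search found 45 of 27990 AUGUSTUS gene models, with 43 distinct gene IDs, and the last 2 of these names found 0. Of the 45, 21 were described as Forkhead factors, 6 as T-box factors and 5 as GATA factors, which gives 32 gene models in the 3 families. The other 13 were 12 proteins with a GATA-type zinc finger and 1 silk gland factor 3, which is a POU factor in the silk moth. They are counted apart and described at the end. A gene model whose description names the fly T-box gene optomotor-blind, aug3.g3790, does not hold any of these words and was not a member.

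All 3 families are transcription factors that read DNA through a domain of their own, the winged helix of Forkhead proteins, the T-box and the GATA zinc finger. Forkhead proteins of the FoxA type open closed chromatin in the mammalian endoderm and build the gut in flies and vertebrates, while FoxO proteins are kept out of the nucleus by insulin signalling. T-box factors act in mesoderm, heart and limb, and GATA factors in endoderm, heart and blood, where they work with partners such as the FOG and LIM-only proteins.

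RNA-Seq was performed on poly(A) mRNA of whole embryos of the Osaka isolate, kept at 25 °C, with 10 to 100 embryos in a sample. Each of 10 stages was sampled once in each of 2 developmental series, and each series came from its own pair of parents, so that n = 2 at every stage. Embryos were taken 9 h after egg laying at stage (st) 1, with 16 cells, at 15 h at st2, with 256 cells, at 20 to 21 h at st3, at 25 to 26 h at st4, at 31 to 32 h at st5 early, at 36 to 37 h at st5 late, at 42 to 43 h at st6, at 50 h at st7, at 60 h at st8 and at 78 h at st10. The embryos were untreated, and the stages were compared with each other.

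Abundance is given in RPKM, read number scaled to exon length and library size, as the authors deposited it, so levels of different genes can be compared per length. The reads behind the values were between 9160802 and 17019009 per library. Tests took in the gene models that reached 1 RPKM in 2 or more samples, 13375 of all and 26 of the 32 (16 Forkhead, 6 T-box and 4 GATA). The st6 library of series 2 stood apart: its value was lower than that of series 1 in 20 of the 26 (76.9%, against 68.8% of all tested), and less than 50% of it in 14 (53.8%, against 36.3%). In whole embryos, fewer cells of a type and less RNA per cell cannot be told apart, nor can RNA laid down by the mother and RNA made by the embryo. Where 2 values are given for a stage, the first is from series 1 and the second from series 2.

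Members of the 3 families were first present, and highest, at different stages. By onset, Forkhead gene models fell into an early and a late group: 9 of the 21 were present at st1, and 6 first appeared at st6 to st8. The other 6 had no onset. Presence at st1 did not always mean an early highest stage: FoxO (aug3.g2974) and P1 (aug3.g26292) were highest at st10 and silk gland factor 1-like (aug3.g6985) at st6. Most of the T-box gene models came late, with 4 of 6 first present at st4 or later and 4 highest at st10, the last stage sampled. Of the 5 GATA gene models, single members were highest at st2, st4, st7 and st10 as means of both series, and 1 was under 1 RPKM throughout as a stage mean. The members highest at st2 and st7 had different highest stages in the 2 series. The families were not tested against each other, since their members are not replicates.

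Onset was taken as the first stage with at least 1 RPKM in both series. It lay at st1 for 9 Forkhead, 2 T-box and 2 GATA gene models, 50.0% of the 26 tested, while 75.6% of all gene models tested had their onset there. At st4 or later it lay for 6 Forkhead, 4 T-box and 1 GATA gene models, 11 in all and each of them tested, or 42.3% of the 26, against 10.7% of all tested. The 6 Forkhead onsets lay at st6 (1), st7 (2) and st8 (3), and the 4 T-box onsets at st4 (1), st7 (2) and st10 (1). Each gene model with an onset at st7 was above 1 RPKM at st6 in series 1. It was under 1 RPKM there in series 2, the library that stood apart, so these onsets depend on that library. No onset was reached by 6 Forkhead and 2 GATA gene models, most of them too low to be tested. Of the 26 tested 2 had none, or 7.69%, near the 5.38% of all tested. An onset at st1 did not always mean a steady level. Forkhead box P1 (aug3.g26292), TBX3 (aug3.g5279) and the GATA-2-like gene model (aug3.g20514) had theirs at st1 and were under 1 RPKM at st4 in both series. As stage means all of them were highest at st10. FoxJ2-like (aug3.g13311) had its onset at st1 too and was at 0.655 and 0.572 RPKM at st4, but it was highest at st1.

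**Figure D1:**
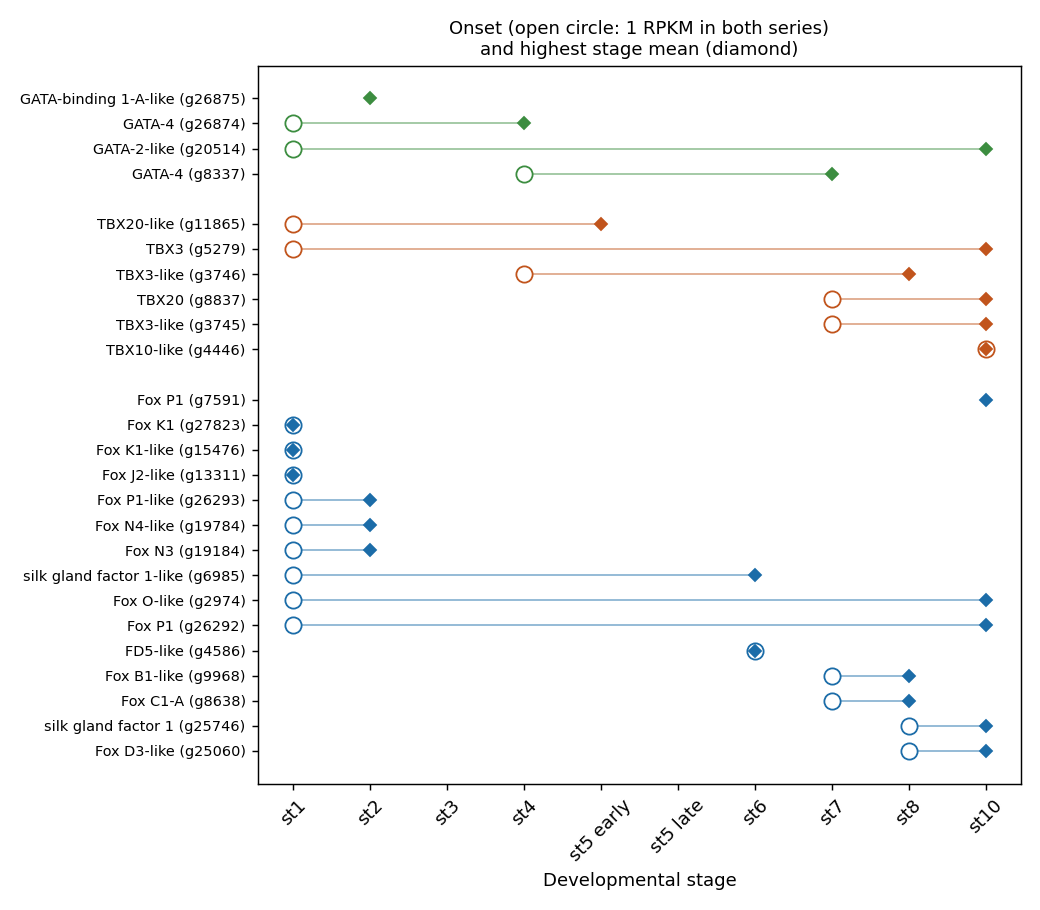
Onset and highest stage of 25 of the 27 Forkhead (blue), T-box (orange) and GATA (green) gene models whose highest stage mean was at least 1 RPKM, with the 10 stages on the x axis and 1 gene model per line. An open circle marks the first stage with 1 RPKM in both series, a diamond the stage of the highest mean of 2 series, and 2 gene models without a circle never reached 1 RPKM in both series at 1 stage. The T-box gene models lie to the right, with 5 of 6 diamonds at st8 or st10, and the Forkhead ones split between the left and the right edge.

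The highest stage was read from the mean of both series, for the 17 Forkhead, 6 T-box and 4 GATA gene models with a highest mean of at least 1 RPKM. It lay at st1 to st3 for 6 Forkhead, 0 T-box and 1 GATA gene models, a range that held 53.6% of all gene models tested with such a mean. At st4 to st5 late it lay for 0, 1 and 1, against 16.6%. At st6 to st10 it lay for 11, 5 and 2, against 29.8% of all, and at st10 alone for 6, 4 and 1, against 15.2%. Numbered from 1 at st1 to 10 at st10, the median highest stage was 8 for Forkhead, 10 for T-box and 6 for GATA, and 3 for all tested. The same stage was highest in both series for 12 Forkhead, 5 T-box and 2 GATA gene models, against 54.8% of all tested.

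Summed over their members, the families changed weight. The Forkhead sum was highest at st2, at 279 ± 10.1 RPKM (SD, n = 2), and was 171 ± 6.75 at st10. Its lowest mean was at st7, at 130.3 ± 4.99, near the 132.7 ± 45.7 of st6. In series 2 the sum was lowest at st6, at 100.4 RPKM. The T-box sum was 2.77 ± 0.209 RPKM at st1 and 64.4 ± 7.57 at st10 (SD, n = 2), with 2 members at 1 RPKM or more in both series at st1 and all 6 at st10. The GATA sum was 15.0 ± 3.51 RPKM at st1, 79.1 ± 14.1 at st4 and 41.7 ± 7.95 at st10 (SD, n = 2). Each sum is led by few members: the st2 value of Forkhead by 3 gene models and the st4 value of GATA by 1, all described below.

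**Figure D2:**
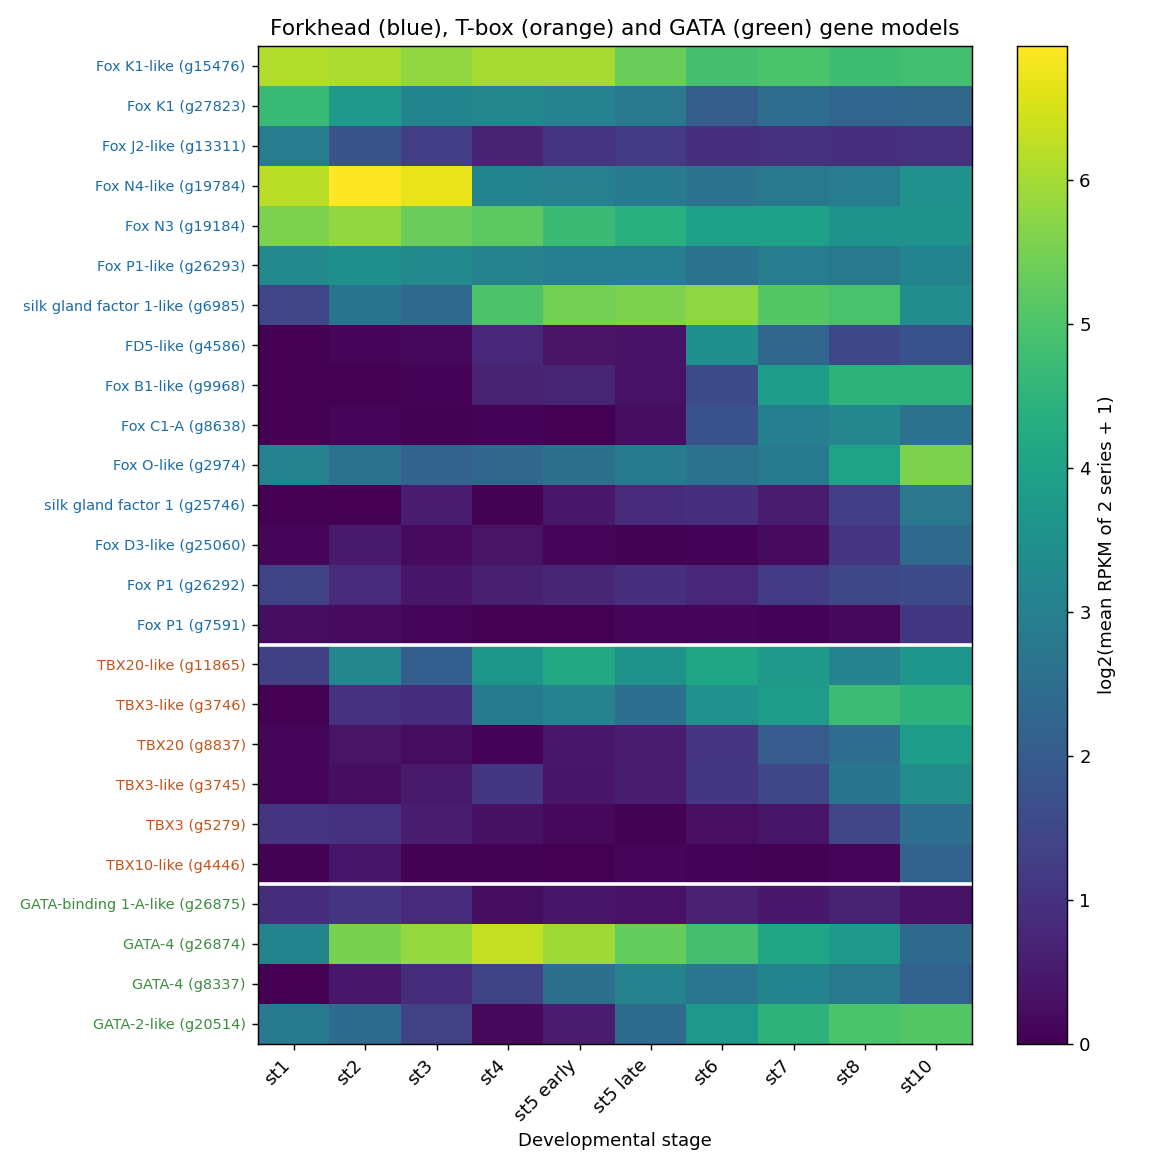
Levels of 25 of the 27 gene models with a highest stage mean of at least 1 RPKM, as log2 of the mean RPKM of 2 series plus 1, with the 10 stages on the x axis and 1 gene model per line, Forkhead at the top, T-box in the middle and GATA at the bottom. In each family lines are ordered by highest stage, and the bright fields move from the left edge in the first Forkhead lines to the right edge in most T-box lines.

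Stages were compared with limma on log2(RPKM + 1), a scale that understates changes of weakly expressed genes, and a change was called at a Benjamini-Hochberg adjusted p under 0.05 over all gene models tested. Changes are given on this scale with their standard error (SE). Of the 26 tested, 25 differed across the 10 stages by the moderated F test, against 79.8% of all. The exception was the Forkhead box P1-like gene model aug3.g26293, at 8.10 and 9.65 RPKM at st1 and 8.67 and 6.91 at st10 (limma adjusted p = 0.428). From st1-st3 to st4-st5 late, that is from cleavage and blastoderm to the germ disc, 2 Forkhead, 3 T-box and 2 GATA gene models rose, 7 in all, against 24.4% of all tested. In the same comparison 4 Forkhead, 1 T-box and 2 GATA gene models fell, 7 in all, against 43.3%. The median change was -0.08 for Forkhead, 0.25 for T-box and 0.19 for GATA on the log2 scale, and -0.26 for all tested. Median-ratio scaling moved the median of all tested by 0.24 to -0.02, turned the Forkhead median to 0.05, and gave 3 Forkhead rises with all family counts otherwise equal, while the split over all tested went from 3259 higher and 5796 lower to 4371 and 4885.

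From st4-st5 late to st6-st10, that is from the germ disc to the germ band, 9 Forkhead, 5 T-box and 2 GATA gene models rose, 16 in all, against 26.5% of all tested. In this comparison 4 Forkhead, 0 T-box and 1 GATA gene models fell, 5 in all, against 19.6%. The median change was 0.50 for Forkhead, 1.17 for T-box and 0.26 for GATA, and 0.03 for all tested. All 14 changes called in the first comparison and all 21 in the second had the same direction in both series, as did 99.7% and 100.0% (6171 of 6172) of all called changes. The samples of the compared stages did not overlap for 7 of the 14 and 6 of the 21, near the shares among all called changes, 53.5% and 26.0%.

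Between neighbouring stages 17 of the 26 were called at 1 or more steps (9 Forkhead, 6 T-box and 2 GATA), against 57.2% of all tested. From st1 to st2, 3 rose (9.78% of all tested) and 1 fell (17.2%), and from st2 to st3 1 fell (1.78%). From st3 to st4, 3 rose (8.72%) and 1 fell (26.5%), and from st4 to st5 early 1 rose (0.344%). Single Forkhead gene models rose from st5 late to st6 (0.396%) and from st6 to st7 (0.277%). From st7 to st8, 3 rose (0.546%), and from st8 to st10, 7 rose (4.17%) and 2 fell (1.47%). The T-box family had 8 rises and 1 fall among these calls, the Forkhead family 9 and 3, and the GATA family 2 and 1. Of these 24 calls, 11 were lost in at least 1 of the 20 fits without 1 library and 12 under at least 1 other setting, and 10 were kept throughout.

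The Forkhead gene models of the early group were led by forkhead box N4-like, K1-like and N3. FoxN4 directs the choice of neuron types in the mouse retina and spinal cord. The spider gene model aug3.g19784 (scaffold 3428, 4419 to 23564, minus strand) reached the highest stage mean of the whole set, 121 RPKM. It stood at 62.5 and 83.8 RPKM at st1, 112 and 129 at st2 and 86.7 and 119.8 at st3, then at 7.40 and 7.97 at st4, and its later values lay between 3.00 and 12.3 RPKM. All 6 samples up to st3 were above all 14 samples from st4 on. In aug3.g19784 the other stages gave 6.73 and 7.34 RPKM at st5 early, 6.59 and 5.63 at st5 late, 7.50 and 3.00 at st6, 5.78 and 6.13 at st7, 8.62 and 4.76 at st8 and 12.3 and 8.25 at st10. The step from st3 to st4 was 11.7-fold in series 1 and 15.0-fold in series 2 and fell by 3.57 (SE 0.34, limma adjusted p = 2.02e-06) on the log2 scale. No other Forkhead gene model fell as much to the germ disc.

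FoxN3 acts as a repressor of transcription in vertebrates. The gene model aug3.g19184 (scaffold 3136, 134966 to 185674, minus strand) went from 63.2 and 45.8 RPKM at st2, its highest stage, to 34.7 and 36.0 at st4, 21.3 and 19.0 at st5 late and 10.3 and 10.7 at st10. It fell by 0.77 (SE 0.23, limma adjusted p = 0.00805) to the germ disc and by 1.07 (SE 0.21, limma adjusted p = 8.37e-04) to the germ band, the largest fall of a Forkhead gene model in the second comparison. Values of neighbouring blocks overlapped in both comparisons. In aug3.g19184 the other stages gave 50.1 and 41.9 RPKM at st1, 50.1 and 28.9 at st3, 23.9 and 27.1 at st5 early, 13.0 and 16.4 at st7 and 11.0 and 10.4 at st8. The st6 values of 22.4 and 6.65 RPKM show the gap between the st6 libraries, and without both of them the fall to the germ band was 1.09 (SE 0.14, limma adjusted p = 2.45e-05).

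FoxK proteins hold down autophagy genes in mammalian cells. The K1-like gene model aug3.g15476 (scaffold 43, 242147 to 271844, minus strand) stayed high up to st5 early, with all 10 samples of these stages between 50.2 and 74.0 RPKM, and was then at 39.8 and 39.0 at st5 late and 29.8 and 26.0 at st10. Its change to the germ disc was not called, at -0.21 (SE 0.15, limma adjusted p = 0.249), and to the germ band it fell by 0.95 (SE 0.14, limma adjusted p = 8.22e-05) with no overlap of samples. Its highest stage differed between the series, st5 early at 68.4 RPKM in series 1 and st2 at 74.0 RPKM in series 2. In aug3.g15476 the other stages gave 66.0 and 71.7 RPKM at st1, 59.7 and 74.0 at st2, 50.2 and 60.0 at st3, 65.9 and 62.9 at st4, 68.4 and 59.7 at st5 early, 36.7 and 19.9 at st6, 30.1 and 30.3 at st7 and 31.7 and 21.2 at st8. A further K1 gene model, aug3.g27823, was highest at st1, at 28.0 and 20.5 RPKM, and fell in both comparisons, by 0.81 and 0.78. FoxJ2-like (aug3.g13311) was at 6.20 and 6.99 RPKM at st1 and 1.65 and 3.15 at st2, a step that fell by 1.19 (SE 0.29, limma adjusted p = 0.00784). That call was lost without the st2 library of series 1, at a limma adjusted p of 0.0957.

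The gene model with the synonym At.fkh in RefSeq, aug3.g6985 (scaffold 821, 35961 to 38224, minus strand), is described as silk gland factor 1-like. Silk gland factor 1 is the silk moth forkhead protein that switches on a sericin gene, and its fly counterpart fork head shapes foregut and hindgut. It rose in steps: from 1.11 and 2.33 RPKM at st1 to 5.71 and 5.02 at st2, and after 3.49 and 4.87 at st3 to 32.8 and 29.0 at st4. The second step was 9.41-fold and 5.96-fold and rose by 2.63 (SE 0.25, limma adjusted p = 1.96e-06). The samples of st1 to st3 were all under 6 RPKM and those of st4 to st5 late all at 29.0 RPKM or more. In aug3.g6985 the other stages gave 50.2 and 37.0 RPKM at st5 early, 49.0 and 42.8 at st5 late, 54.1 and 53.2 at st6 and 31.6 and 35.0 at st7. Its change to the germ disc, a rise of 3.19 (SE 0.15, limma adjusted p = 9.71e-11), was the largest rise of the Forkhead family there. After st8, at 31.7 and 27.9 RPKM, it fell to 10.5 and 8.50 at st10, by 1.55 (SE 0.25, limma adjusted p = 0.00107).

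**Figure D3:**
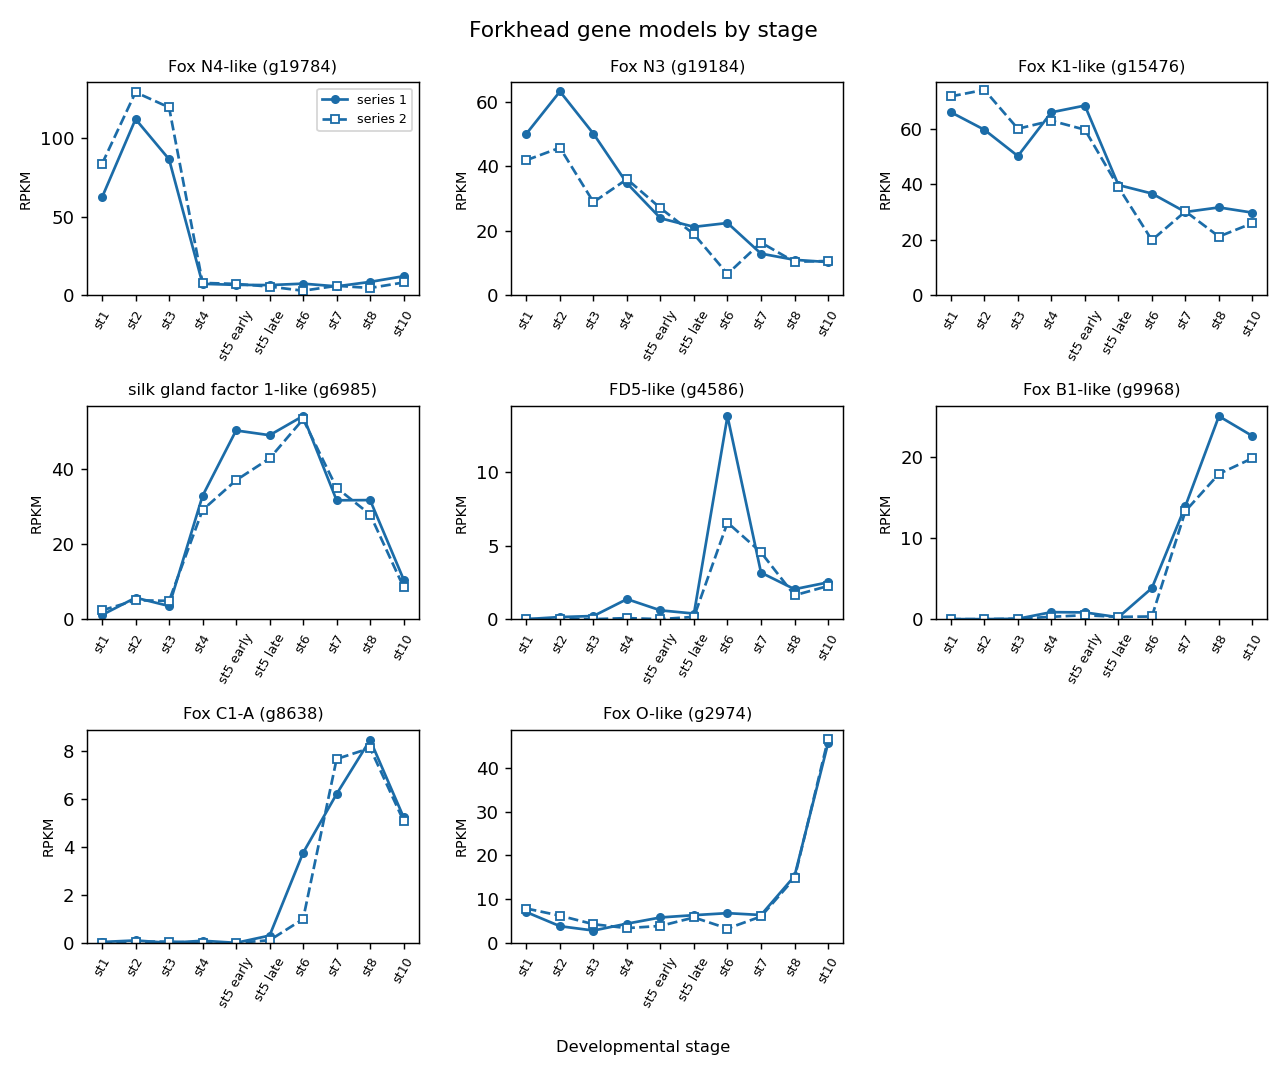
RPKM of 8 Forkhead gene models in series 1 (filled circles, solid line) and series 2 (open squares, dashed line) at the 10 stages, each panel with its own y axis. N4-like drops from 86.7 and 119.8 RPKM at st3 to 7.40 and 7.97 at st4, the silk gland factor 1-like gene model is high from st4 to st8, and FD5-like, B1-like, C1-A and O-like have their highest values at st6 or later.

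The late Forkhead group had its onsets at st6, st7 and st8. The first gene model was the FD5-like gene model aug3.g4586 (scaffold 574, 327339 to 403334, minus strand), named for a fly Forkhead protein. It was at 0.379 and 0.153 RPKM at st5 late, 13.8 and 6.57 at st6, 3.16 and 4.54 at st7 and 2.50 and 2.25 at st10. From st5 late to st6 it rose by 3.07 (SE 0.37, limma adjusted p = 8.17e-04), the only step called there among the 26. The rise lies on 7 and 2 reads at st5 late, was not called with a pseudocount of 0.1 or with weights on read numbers (highest adjusted p 0.0568), and at st6 series 2 was the lower one.

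FoxB1 marks parts of the mouse hypothalamus and midbrain. The B1-like gene model aug3.g9968 (scaffold 1096, 172085 to 180904, minus strand) was under 1 RPKM in both series up to st5 late and at 3.82 and 0.325 RPKM at st6. At st7 it was at 13.9 and 13.3, at st8 at 25.0 and 17.9 and at st10 at 22.5 and 19.8. It had the largest rise to the germ band of the Forkhead family, 2.98 (SE 0.23, limma adjusted p = 1.02e-07), at 3.17 in series 1 and 2.79 in series 2. The blocks overlapped through the st6 sample of series 2. In aug3.g9968 the other stages gave 0 and 0 RPKM at st1, 0 and 0 at st2, 0.0428 and 0.0473 at st3, 0.859 and 0.288 at st4, 0.827 and 0.483 at st5 early and 0.229 and 0.277 at st5 late. The step from st6 to st7, a rise of 2.53 (SE 0.42, limma adjusted p = 0.0137), was lost without either st7 library or without st6 of series 2, with an adjusted p of at most 0.170, and with a pseudocount of 0.1, at 0.106.

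FoxC1, which forms the front of the eye and somite-derived tissue in the mouse, had a gene model with no overlap of germ disc and germ band samples. This gene model, aug3.g8638, had at most 8 reads in any library up to st5 late, 3.75 and 0.989 RPKM at st6, 6.20 and 7.65 at st7 and 8.45 and 8.11 at st8, and rose by 2.50 (SE 0.16, limma adjusted p = 1.86e-08) to the germ band.

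D3-like and a further silk gland factor 1 gene model had their onset at st8 and were highest at st10. FoxD3 keeps neural crest cells in an undecided state in vertebrates, and aug3.g25060 was at 1.16 and 1.05 RPKM at st8 and 3.75 and 4.71 at st10. The silk gland factor 1 gene model aug3.g25746, a Forkhead gene model apart from At.fkh, was at 1.37 and 1.47 RPKM at st8 and 5.85 and 5.70 at st10, a rise of 1.48 (SE 0.20, limma adjusted p = 1.98e-04). Its small rise to the germ disc, 0.27 (SE 0.12, limma adjusted p = 0.0474), was lost in 15 of the 20 fits without 1 library. The remaining P1 gene models were weak: aug3.g26292 was highest at 2.01 RPKM as a stage mean and aug3.g7591 at 1.17.

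FoxO, the Forkhead protein that insulin signalling keeps out of the nucleus, was present throughout. Its gene model aug3.g2974 (scaffold 436, 649419 to 763484, plus strand) lay between 2.81 and 7.85 RPKM in all 16 samples up to st7, then at 15.3 and 14.8 at st8 and 45.7 and 46.6 at st10. It was 2.40-fold and 2.45-fold higher at st8 than at st7, a step of 1.16 (SE 0.30, limma adjusted p = 0.195) that was not called. From st8 to st10 it was 2.99-fold and 3.15-fold higher and rose by 1.56 (SE 0.30, limma adjusted p = 0.00473), a call lost only without the st10 library of series 2, at an adjusted p of 0.0754. Its change to the germ disc was 0.29 in series 1 and -0.41 in series 2 and was not called, while to the germ band it rose by 1.19 (SE 0.16, limma adjusted p = 3.40e-05). In aug3.g2974 the other stages gave 7.02 and 7.85 RPKM at st1, 3.81 and 6.22 at st2, 2.81 and 4.26 at st3, 4.39 and 3.37 at st4, 5.81 and 3.87 at st5 early, 6.33 and 5.81 at st5 late, 6.79 and 3.28 at st6 and 6.37 and 6.03 at st7.

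Of 11 gene models for the insulin arm above FoxO, all tested, 3 rose and 7 fell to the germ disc (24.4% and 43.3% of all gene models tested), with a median of -0.81 against -0.26 for all. To the germ band 2 rose and 0 fell (26.5% and 19.6% of all), with a median of 0.18 against 0.03. The receptor gene model aug3.g26159, described as insulin-like growth factor 1 receptor, fell by 1.56 (SE 0.15, limma adjusted p = 3.79e-07) to the germ disc. The kinase AKT (aug3.g4339), which phosphorylates FoxO, fell by 1.18 (SE 0.18, limma adjusted p = 3.49e-05). A pair of gene models for the alpha catalytic subunit of phosphoinositide 3-kinase rose instead, aug3.g12276 by 1.02 (SE 0.15, limma adjusted p = 3.32e-05) and aug3.g24352 by 1.42 (SE 0.20, limma adjusted p = 2.25e-05), and both rose again to the germ band. AKT was highest at st2, the receptor at st2 and both catalytic subunits at st6. FoxO was highest at st10, and so was insulin receptor substrate 1-B (aug3.g1537) of the arm, at 14.0 RPKM as a stage mean. The F test of aug3.g1537 was not called (limma adjusted p = 0.113). The remaining gene models of the arm were highest at st1, st2 or st4.

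Some Forkhead gene models carried hardly any reads. Forkhead box F1, a factor of gut mesoderm in vertebrates and flies, had its single gene ID on aug3.g19520 and aug3.g8281. The first had 2 reads in all 20 libraries, the lowest number that fits its values. The second was listed at 0 RPKM in all of them, and its exon length and the RPKM of 1 read could not be recovered. FoxK1 aug3.g22782 also had 2 reads as the lowest number that fits. It shares its ID with aug3.g27823, which had 10381, so reads of 1 gene could be split between these models. The reads of aug3.g19520 lay at st2 of series 1 (0.0762 RPKM) and st6 of series 2 (0.0527), and those of aug3.g22782 at st6 of series 1 (0.167) and st1 of series 2 (0.243), with 0 elsewhere. FoxK2 (aug3.g8637) was below 1 RPKM in all samples, with its highest values at st10, at 0.785 and 0.766. A count of 0 allows up to 3 reads, so lower levels were not detectable at this depth.

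The T-box gene models were low at st1 and most rose late. TBX20 acts in the vertebrate heart, and its fly relatives midline and H15 act in heart and ventral leg. The spider has a pair with different courses. The TBX20-like gene model aug3.g11865 (scaffold 1390, 115866 to 175474, plus strand), which has the synonym h15-1 in RefSeq, was the first T-box gene model to be abundant. It was at 1.23 and 1.72 RPKM at st1, 7.76 and 8.42 at st2, 2.49 and 3.97 at st3, 13.1 and 10.1 at st4 and 18.8 and 15.6 at st5 early. The rises from st1 to st2, by 1.88 (SE 0.27, limma adjusted p = 1.58e-04), and from st3 to st4, by 1.59 (SE 0.27, limma adjusted p = 3.97e-04), were called in all 20 fits without 1 library. The fall between them, by 1.13 (SE 0.27, limma adjusted p = 0.0333), was lost in 8 of these fits, with median-ratio scaling and with weights on read numbers. From st4 on, all samples lay between 6.86 and 19.9 RPKM, and its change to the germ band was not called, at -0.16 (SE 0.15, limma adjusted p = 0.398). The highest stage was st5 early in series 1 and st6 in series 2, the library that stood apart. In aug3.g11865 the other stages gave 10.0 and 11.4 RPKM at st5 late, 12.2 and 19.9 at st6, 10.8 and 13.8 at st7, 8.21 and 6.86 at st8 and 10.6 and 12.5 at st10.

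TBX20 (aug3.g8837; scaffold 957, 274386 to 386335, plus strand) was low when TBX20-like was already high. It was at 0.439 and 0.295 RPKM at st5 early, 1.73 and 0.530 at st6, 3.34 and 2.59 at st7, 5.22 and 3.98 at st8 and 12.3 and 15.0 at st10. All 8 germ band samples were above all 6 germ disc samples. In aug3.g8837 the other stages gave 0.127 and 0.0621 RPKM at st1, 0.209 and 0.345 at st2, 0.0697 and 0.270 at st3, 0.0608 and 0.0336 at st4 and 0.346 and 0.526 at st5 late. It had the largest rise to the germ band of the T-box family, 1.99 (SE 0.14, limma adjusted p = 4.05e-08), and rose again from st8 to st10, by 1.39 (SE 0.25, limma adjusted p = 0.00281), a call lost without the st10 library of series 2, at an adjusted p of 0.0766, and with a pseudocount of 0.1, at 0.169.

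TBX3 shapes limbs and the cardiac pacemaker in vertebrates, and the fly gene optomotor-blind, of the same subfamily, patterns wing and optic lobe. The most abundant T-box gene model was TBX3-like aug3.g3746 (scaffold 498, 308216 to 319902, plus strand). It had no reads at st1, 0.659 and 1.09 RPKM at st3, 5.68 and 6.74 at st4, 11.3 and 9.56 at st6, 30.7 and 20.7 at st8 and 22.4 and 19.9 at st10. Samples of the early stages were all below those of the germ disc. It rose by 1.95 (SE 0.42, limma adjusted p = 0.00225) from st3 to st4 and had the largest rise of the T-box family to the germ disc, 2.13 (SE 0.24, limma adjusted p = 2.23e-06). At st5 early the series lay apart, at 11.2 and 3.64 RPKM. In aug3.g3746 the other stages gave 0.987 and 0.963 RPKM at st2, 5.91 and 3.64 at st5 late and 18.1 and 7.91 at st7.

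The second TBX3-like gene model, aug3.g3745 (scaffold 498, 120886 to 227117, plus strand), has the synonym omb in RefSeq. It was at most 1.40 RPKM in any sample up to st5 late, then at 1.44 and 0.896 at st6, 2.06 and 1.51 at st7, 4.96 and 5.87 at st8 and 7.67 and 11.9 at st10. It rose to the germ band by 1.48 (SE 0.13, limma adjusted p = 3.46e-07). In aug3.g3745 the other stages gave 0.112 and 0.0550 RPKM at st1, 0.0617 and 0.333 at st2, 0.432 and 0.375 at st3, 0.943 and 1.40 at st4, 0.363 and 0.290 at st5 early and 0.495 and 0.400 at st5 late. The smaller rise to the germ disc, 0.40 (SE 0.13, limma adjusted p = 0.0171), was lost without the st4 library of series 2, at an adjusted p of 0.0535. The step from st7 to st8 was lost in 8 of the 20 fits without 1 library, with an adjusted p of at most 0.511, and with a pseudocount of 0.1 or weights on read numbers.

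TBX3 (aug3.g5279; scaffold 636, 237146 to 313258, plus strand) was the only T-box gene model to fall to the germ disc. It was at 1.16 and 1.02 RPKM at st1, with 39 and 28 reads, at 0.353 RPKM or less from st4 to st6, at 0.437 and 0.237 at st7, and at 1.58 and 1.86 at st8 and 4.10 and 5.29 at st10. It fell by 0.70 (SE 0.11, limma adjusted p = 5.86e-05) to the germ disc, with no overlap of samples, and rose by 1.00 (SE 0.10, limma adjusted p = 2.42e-06) to the germ band. In aug3.g5279 the other stages gave 0.733 and 1.25 RPKM at st2, 0.408 and 0.541 at st3, 0.142 and 0.353 at st4, 0.103 and 0.115 at st5 early, 0 and 0.0440 at st5 late and 0.175 and 0.282 at st6. The TBX10-like gene model aug3.g4446, with the synonym tbx1 after a factor of the vertebrate pharynx, was the last to appear. It had at most 8 reads in any library up to st8, then 40 and 121 reads at st10, which is 2.00 and 5.21 RPKM, and rose by 2.00 (SE 0.25, limma adjusted p = 1.04e-04) from st8 to st10.

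**Figure D4:**
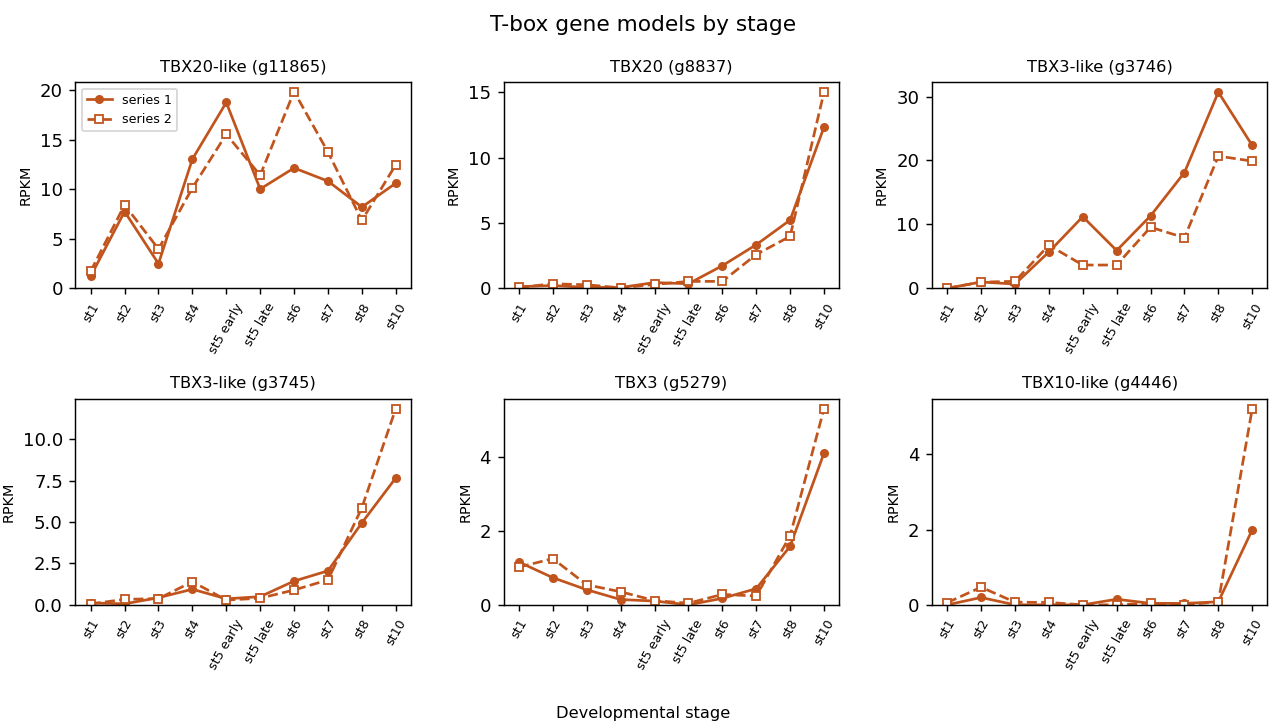
RPKM of the 6 T-box gene models in series 1 (filled circles, solid line) and series 2 (open squares, dashed line) at the 10 stages, each panel with its own y axis. TBX20-like is at 10.0 RPKM or more from st4 to st7, whereas TBX20, TBX3-like aug3.g3745, TBX3 and TBX10-like have their highest values at st10.

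The GATA gene models were of unequal level and, as means of both series, had different highest stages. GATA-4 builds heart and endoderm in vertebrates, and the fly GATA factors pannier and serpent act in the dorsal side, heart, endoderm and blood. The GATA-4 gene model aug3.g26874 (scaffold 177, 310446 to 328722, plus strand) was at 8.01 and 7.51 RPKM at st1, 39.1 and 52.4 at st2, 45.5 and 66.8 at st3 and 66.6 and 86.9 at st4. It then stood at 26.9 and 49.6 at st5 late, 12.4 and 19.2 at st7 and 3.92 and 4.32 at st10. Its first step was 4.88-fold and 6.98-fold and rose by 2.40 (SE 0.32, limma adjusted p = 7.57e-05). It rose by 0.99 (SE 0.18, limma adjusted p = 2.51e-04) to the germ disc and fell by 2.07 (SE 0.17, limma adjusted p = 2.65e-07) to the germ band, with samples of neighbouring blocks overlapping in both. In aug3.g26874 the other stages gave 54.2 and 67.8 RPKM at st5 early, 26.4 and 31.2 at st6 and 9.86 and 14.3 at st8. The fall from st8 to st10, by 1.33 (SE 0.32, limma adjusted p = 0.0212), was not called after median-ratio scaling, at an adjusted p of 0.0607, nor without either st10 library or without st8 of series 2, where it was at most 0.238.

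The GATA-2-like gene model aug3.g20514 (scaffold 3899, 2716 to 67020, plus strand), with the RefSeq synonym GATA-C, had another course. GATA-2 keeps blood stem cells in the mouse. It was at 3.32 and 9.20 RPKM at st1, 1.68 and 7.27 at st2 and 0.914 and 2.25 at st3. At st4 it had 3 and 7 reads, 0.0772 and 0.199 RPKM, and at st5 early 26 and 10 reads. It then stood at 3.56 and 5.12 RPKM at st5 late, 13.8 and 9.97 at st6, 23.7 and 19.3 at st7, 27.3 and 33.1 at st8 and 27.8 and 38.3 at st10. The early values of series 2 were higher than those of series 1 at all 3 stages. In aug3.g20514 the other stage gave 0.644 and 0.277 RPKM at st5 early.

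GATA-2-like was lowest at st4, the highest stage of GATA-4 and a stage to which 26.5% of all gene models tested fell from st3. It fell by 1.05 (SE 0.28, limma adjusted p = 0.00386) to the germ disc, at -0.49 in series 1 and -1.62 in series 2, and rose by 3.51 (SE 0.26, limma adjusted p = 8.58e-08) to the germ band, with all 8 germ band samples above all germ disc samples. The rise to the germ band was the largest of the 26 gene models tested. From st5 early to st5 late it was 5.52-fold and 18.5-fold higher, a difference of 1.87 (SE 0.48, limma adjusted p = 0.109) that was not called. No step of it between neighbouring stages was called.

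The second GATA-4 gene model, aug3.g8337 (scaffold 899, 341296 to 378254, minus strand), was weaker and later. It had 1 and 0 reads at st1, then 0.785 and 0.954 RPKM at st3, 1.94 and 1.44 at st4, 5.56 and 4.16 at st5 early, 6.73 and 8.52 at st5 late, 7.25 and 8.36 at st7 and 3.53 and 3.29 at st10. Its highest stage was st7 in series 1 and st5 late in series 2. All germ disc samples were above all earlier ones, and it rose by 1.90 (SE 0.14, limma adjusted p = 1.39e-08) to the germ disc, the largest rise of the family. In aug3.g8337 the other stages gave 0.0190 and 0 RPKM at st1, 0.470 and 0.259 at st2, 6.68 and 4.56 at st6 and 6.37 and 5.49 at st8. Its change to the germ band, 0.34 (SE 0.13, limma adjusted p = 0.0401), was lost with a pseudocount of 0.1, without the filter on low values and in 9 of the 20 fits without 1 library. The step from st4 to st5 early, a rise of 1.12 (SE 0.23, limma adjusted p = 0.0291), was lost in 5 of these fits, with an adjusted p of at most 0.362, and under 3 other settings.

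The other GATA gene models were near the limit of detection. GATA-1, known from red blood cells, had the gene model aug3.g26875, with 1.06 and 0.719 RPKM at st1 and 0.732 and 1.52 at st2. It had 1 to 8 reads in each germ disc library, 0.0706 to 0.493 RPKM, all below the early samples, and fell by 0.60 (SE 0.13, limma adjusted p = 9.96e-04). Its F test (limma adjusted p = 0.0456) missed the threshold in 13 of the 20 fits without 1 library, after median-ratio scaling (0.0919), and with weights on read numbers (0.0537). In aug3.g26875 the other stages gave 0.806 and 0.810 RPKM at st3, 0.320 and 0.0706 at st4, 0.493 and 0.207 at st5 early, 0.392 and 0.158 at st5 late, 0.763 and 0.355 at st6, 0.349 and 0.427 at st7, 0.412 and 0.814 at st8 and 0.281 and 0.243 at st10. The GATA-4-like gene model aug3.g8336 was not tested and reached 1 RPKM in 1 sample, st10 of series 2, at 1.15 RPKM against 0.508 in series 1. In aug3.g8336 the other stages gave 0.120 and 0.0739 RPKM at st1, 0.331 and 0.224 at st2, 0.332 and 0.0916 at st3, 0.145 and 0.479 at st4, 0.0696 and 0.312 at st5 early, 0.253 and 0.179 at st5 late, 0.406 and 0.401 at st6, 0.246 and 0.663 at st7 and 0.362 and 0.256 at st8.

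**Figure D5:**
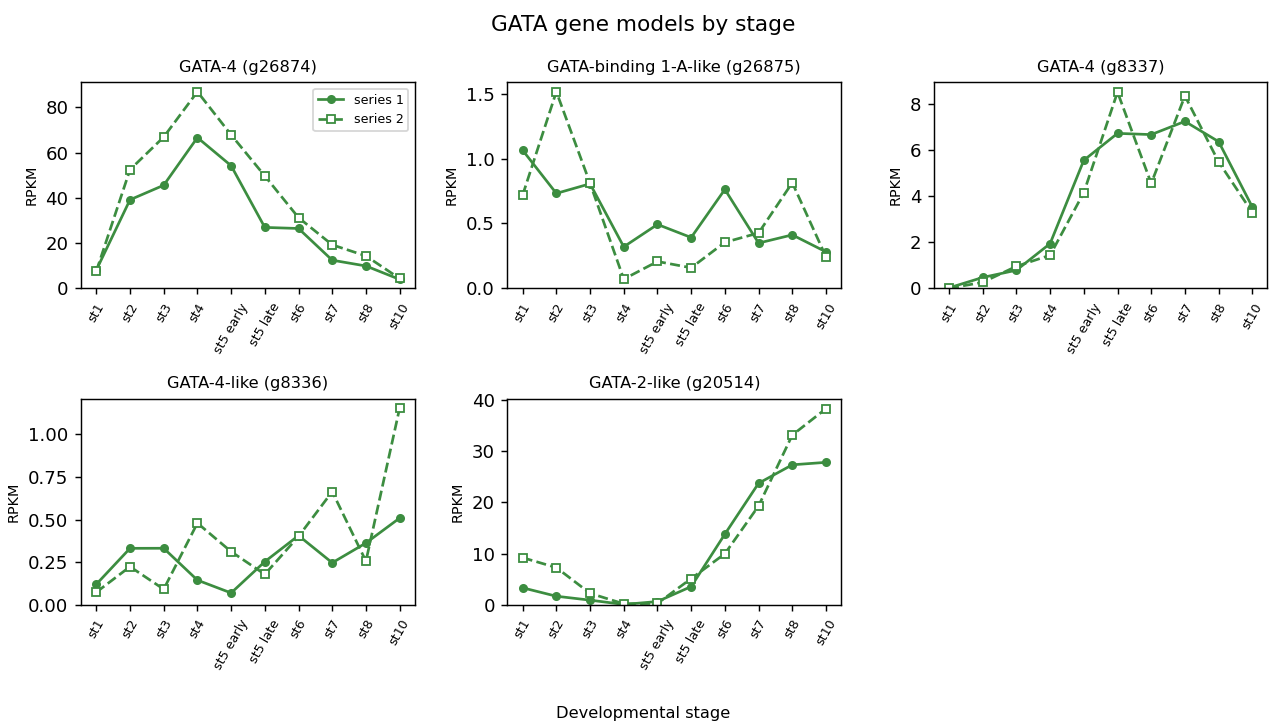
RPKM of the 5 GATA gene models in series 1 (filled circles, solid line) and series 2 (open squares, dashed line) at the 10 stages, each panel with its own y axis. GATA-4 aug3.g26874 is highest at st4, at 66.6 and 86.9 RPKM, where GATA-2-like is at 0.0772 and 0.199 RPKM, and GATA-2-like reaches 27.8 and 38.3 RPKM at st10.

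Partners of these factors in gut and mesoderm were given by 25 gene models, of which 21 were tested. Of the 21, 5 rose and 5 fell to the germ disc (24.4% and 43.3% of all tested), with a median of -0.09 against -0.26 for all tested. To the germ band 16 rose and 2 fell (26.5% and 19.6% of all tested), with a median of 0.71 against 0.03. The snail gene models aug3.g416 and aug3.g417, for a repressor that acts in the mesoderm of flies, rose to the germ disc by 3.64 (SE 0.18, limma adjusted p = 2.01e-10) and 3.70 (SE 0.25, limma adjusted p = 9.08e-09). They were highest at st4, the highest stage of GATA-4 aug3.g26874, and both fell to the germ band. HNF4 (aug3.g26734), a nuclear receptor of gut and liver in vertebrates, rose in both comparisons, by 1.14 and 1.69.

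Several partners of GATA factors rose to the germ band, but not all did: LMO4-B (aug3.g20493) was not called there, at -0.04 (SE 0.18, limma adjusted p = 0.901). LIM domain only protein 7 (aug3.g14125), which is in the list by its description alone, was not called there either. The FOG relatives, which bind GATA factors in flies and vertebrates, rose there, aug3.g14866 by 1.48 (SE 0.26, limma adjusted p = 2.77e-04) and aug3.g16893 by 1.01 (SE 0.11, limma adjusted p = 3.80e-06). To the germ disc aug3.g14866 had fallen by 0.84 (SE 0.27, limma adjusted p = 0.0138). TAL1 (aug3.g6233), which joins GATA and LIM-only proteins in blood cells of vertebrates, rose by 1.93 (SE 0.26, limma adjusted p = 2.55e-05) to the germ band. The twist gene models aug3.g14287 and aug3.g14166, for a mesoderm factor, rose there by 2.06 and 0.71.

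Several members are neighbours in the RefSeq annotation of a later assembly, CAS_Ptep_4.0, and their levels mostly differed. With 0 genes between them lay GATA-4 aug3.g26874 and GATA-1-A-like aug3.g26875, highest at 76.7 and 1.12 RPKM as stage means. The same held for GATA-4 aug3.g8337 and GATA-4-like aug3.g8336, at 7.81 and 0.831 RPKM, and for FoxC1-A aug3.g8638 and FoxK2 aug3.g8637, at 8.28 and 0.776 RPKM. In the T-box family TBX3-like aug3.g3746 and aug3.g3745 were next to each other, at 25.7 and 9.77 RPKM, with TBX3 aug3.g5279 beyond 1 gene. TBX20 aug3.g8837 and TBX20-like aug3.g11865 were neighbours too, at 13.7 and 17.2 RPKM. In each of these 5 pairs the highest stages of the partners differed. How often neighbours differ in this among all gene models was not tested. The TBX3-like pair rose in both comparisons, aug3.g3746 by 2.13 and 1.35 and aug3.g3745 by 0.40 and 1.48.

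Markers of cell types gave no check of a tissue, since whole embryos hold all of them, and their sums are given beside the late rises. The sum of 12 muscle gene models (troponins, tropomyosins and muscle myosin, 7 of them tested) lay between 55.6 and 196 RPKM at st1 to st3, 69.1 and 216 at st4 to st5 late and 193 and 350.0 at st6 to st10. A single tropomyosin (aug3.g670) held 49.8% to 86.3% of it, and the other 11 summed to 50.4 RPKM at most. The sum of 9 hemocyanins, blood proteins that carry oxygen, of which all 9 rose to the germ band (26.5% of all tested), was at most 12.1 RPKM up to st3 and 1.45 RPKM at st4 to st5 late, and 1145 and 1444 RPKM at st10, the stage at which 11 of the 27 gene models with 1 RPKM or more were highest. The sum of 25 nerve gene models (synaptotagmins, ELAV-like, neurexins and synaptobrevin, with relatives not particular to nerve, 12 of them tested) lay between 341 and 585 RPKM, 416 and 501 and 420.0 and 780.0 in the same blocks. An ELAV-like 1 pseudogene (aug3.g757) held 34.4% to 92.8% of it, and the other 24 summed to between 178 and 264, 63.1 and 86.7 and 56.4 and 118 RPKM. The highest germ band values of the muscle and nerve sums, 350.0 and 780.0 RPKM, both came from the st6 library of series 2, which stood apart. The highest values of the other germ band samples were 253 RPKM for muscle and 471 RPKM for nerve. The part of new cell types in the late rises was not tested.

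The 12 gene models with a GATA-type finger outside the family were mostly highest early: of 7 tested, 6 had a highest mean at st1 to st3, against 53.6% of all tested. In the first comparison 0 rose and 5 fell (24.4% and 43.3% of all tested). In the second 2 rose, a share near the 26.5% of all tested, and 0 fell (19.6%). GATA-type zinc finger protein 1 (aug3.g27529), whose mouse counterpart acts in germ cells, was at 36.6 and 74.9 RPKM at st1 and 0.833 and 3.19 at st2, and was listed at 0 in 13 of the 14 samples from st4 on. A further one, GATA zinc finger domain-containing protein 1 (aug3.g10531), was at 119 and 34.0 RPKM at st1 and 1.20 and 1.45 at st4 and fell by 3.95 (SE 0.30, limma adjusted p = 2.44e-08). The silk gland factor 3 gene model aug3.g15237 was at 3.95 RPKM or less in all samples up to st8 and at 7.54 and 11.4 at st10.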

How the data were processed

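Whole embryos were sequenced (RNA-Seq of poly(A) mRNA) at 10 stages in 2 series, 20 samples in all, and the labels gave stage and series. After trimming, the authors placed reads on the assembly Ptep_1.0 with BLAT, kept unique and close alignments, and used HTSeq 0.6.1p1 for strand-specific counting on AUGUSTUS gene models. They deposited RPKM, which were used as given, without scaling between samples. The table had 0 columns of values that belong to no sample. The coverage tracks were not used here.

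Families were read from the descriptions in the table. RefSeq's CAS_Ptep_4.0 gave synonyms and the order of neighbouring genes only, with all 43 gene IDs found there. The members and the lists were chosen with earlier results of these data known. Since RPKM values are not counts, log2(RPKM + 1) was fitted with limma 3.58.1 (R 4.3.3; lmFit, then eBayes with a trend) as 10 stage means over all 20 samples, with 10 residual degrees of freedom and Benjamini-Hochberg adjustment over all 13375 gene models at 1 RPKM or more in at least 2 samples. The same fit gave the moderated F test, the contrasts of st1 to st3, st4 to st5 late and st6 to st10, and the 9 steps between neighbouring stages, each step adjusted on its own. The test was tried on simulated data first. The low values came in whole multiples of the value of 1 read, which gave the reads. For each gene model the smallest exon length that made the reads whole in all samples was taken. Such a length was found for 99.9% of the gene models with any read, to within 0.0001 reads. As the length was chosen for this, wholeness is no separate check of the reads. Where few libraries hold reads, a multiple of the length can fit as well, and the reads given are the lowest that fit. Figures were made with Python 3.11.15 and matplotlib 3.10.9.

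Every sample value is given for the 5 members with the highest stage mean in each family, those with the largest called rise and fall in both block contrasts, and those whose highest stage lay 3 or more stages apart between the series. A few further members are given as examples, chosen after their values were seen. Values of some members and list genes are not reported here. The replicate number names the pair of parents, so same-numbered samples share their parents. Differences between the series correlated between stages with r from -0.06 to 0.70 over 45 pairs of stages (median 0.24, across genes, which are not independent replicates). Apart from the parents, nothing shows how far samples of 1 stage were handled apart, so that p-values measure the spread between these samples. Alternatives tried were no filter, a minimum of 5 RPKM, a pseudocount of 0.1, median-ratio scaling, the replicate block, voom weights on the recovered reads, leaving out each library or both st6 libraries, each series alone, onset limits of 0.5 and 5 RPKM or 10% of the highest mean, and peaks of at least 5 RPKM.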

Additional observations from a re-analysis of the deposited data

How the results depend on the processing

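The number of members that differed across stages was 25 and lay between 19 and 27 under other settings, and between 22 and 26 without 1 library. The 14 changes to the germ disc lay between 11 and 16 (12 to 15 without 1 library), the 21 changes to the germ band between 16 and 22 (18 to 21), and the 17 members with a called step between 14 and 21 (13 to 25). With the replicate block the 4 counts were 25, 15, 21 and 21. The block added 1 block-of-stages call, aug3.g9968 to the germ disc (limma adjusted p = 0.0375, against 0.0622), and ended none.

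Forkhead onsets at st4 or later were 6, against 7 or 8 in either series alone and between 5 and 9 under the other settings (9 at a limit of 0.5 RPKM), and T-box onsets were 4, against 3 or 4 in either series alone and between 3 and 5 otherwise. GATA counts rest on 5 gene models. GATA onsets at st4 or later were 1, between 1 and 2 in either series alone, 2 at a limit of 5 RPKM and 0 at 10% of the highest mean. The median highest stage of GATA was 6, and 5 after median-ratio scaling. Among members with a highest mean of at least 5 RPKM the median was 7 for Forkhead, 9.5 for T-box and 8 for GATA. Of 616 alternatives for 23 changes of named members, 604 kept direction and call, 12 kept the direction and lost the call, and 0 turned. Weak members are limited by depth: where a library holds fewer than 10 reads of a gene model, a step from there rests on few reads.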
